A study of Homo sapiens with 6 samples.

Results

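The regions described here are the accessible sites of human chromosome 18 (chr18) in RKO cells. All ATAC-seq peaks on chr18 in the 6 samples were taken, and overlapping peaks (1 bp or more) were joined, which gave 1858 regions of 102770 on chromosomes 1 to 22 and X. Of these, 854 had a peak in every sample, out of 50148 such shared regions genome-wide. RKO is an established colon cancer cell line, with deficient mismatch repair and unstable microsatellites. The study treated it with aphidicolin (APH), an inhibitor of the replicative DNA polymerases, to ask how a mild slowing of replication acts on chromatin accessibility. There were 3 samples with 0.2 µM APH for 16 h and 3 samples with DMSO, the solvent control. By the methods of the study, RKO cells were treated with DNase and frozen before the assay. ATAC-seq uses the Tn5 transposase to insert sequencing adapters into accessible DNA, and each deposited value is the mean over a peak of a map of read coverage, in units of that map. The number of reads per sample is unknown, so no counting error can be given. In bulk samples, the share of cells in which a site is open and its degree of opening per cell cannot be told apart.

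Chromosome 18 is known as a gene-poor human chromosome that lies mostly near the nuclear periphery, and much of it replicates late in S phase. Late replicating, lamina-associated chromatin is generally compact and has few active promoters. Open promoters in human cells often lie in CpG islands, stretches of DNA rich in G, C and CpG, while promoters of tissue-restricted genes often lack them.

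Sequences of promoters were printed to show what the accessible and the inaccessible starts of chr18 look like. Each runs from 250 bases before to 50 bases after a start, 5' to 3' on the strand of the gene, and comes from RefSeq on GRCh38.p14. Capitals mark the GC box GGGCGG and the CCAAT box CCAAT, read on either strand. The first set holds the protein-coding genes with the strongest promoter regions of the chromosome. PHLPP1, a phosphatase that acts on AKT, lies on the plus strand (chr18:62715291-62715590), and AFG3L2, a subunit of a mitochondrial protease, on the minus strand (chr18:12377178-12377477). The same set holds SMAD4, the shared mediator of TGF-beta signals (plus strand, chr18:51029963-51030262), TYMS, the thymidylate synthase that makes a DNA precursor (plus strand, chr18:657403-657702), and BCL2, an inhibitor of apoptosis (minus strand, chr18:63319720-63320019). These 3 were chosen for their role.
PHLPP1: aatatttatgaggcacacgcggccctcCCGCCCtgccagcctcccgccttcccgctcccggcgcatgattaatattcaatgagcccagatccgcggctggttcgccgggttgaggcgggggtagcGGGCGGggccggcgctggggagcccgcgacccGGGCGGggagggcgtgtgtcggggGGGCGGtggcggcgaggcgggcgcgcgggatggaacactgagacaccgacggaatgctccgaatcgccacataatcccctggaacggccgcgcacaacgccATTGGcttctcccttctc
AFG3L2: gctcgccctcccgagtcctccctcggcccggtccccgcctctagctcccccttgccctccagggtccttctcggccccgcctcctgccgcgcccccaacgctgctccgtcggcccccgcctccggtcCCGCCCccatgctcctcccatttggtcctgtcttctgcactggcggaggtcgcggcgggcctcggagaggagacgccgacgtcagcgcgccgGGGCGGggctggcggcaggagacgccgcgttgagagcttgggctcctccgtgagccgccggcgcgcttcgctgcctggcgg
SMAD4: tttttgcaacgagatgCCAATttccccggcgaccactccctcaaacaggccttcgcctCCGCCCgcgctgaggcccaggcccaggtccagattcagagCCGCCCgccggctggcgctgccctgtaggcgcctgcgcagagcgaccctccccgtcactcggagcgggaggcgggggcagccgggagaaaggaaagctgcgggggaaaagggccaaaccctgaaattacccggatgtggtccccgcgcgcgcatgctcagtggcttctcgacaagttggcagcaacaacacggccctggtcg
TYMS: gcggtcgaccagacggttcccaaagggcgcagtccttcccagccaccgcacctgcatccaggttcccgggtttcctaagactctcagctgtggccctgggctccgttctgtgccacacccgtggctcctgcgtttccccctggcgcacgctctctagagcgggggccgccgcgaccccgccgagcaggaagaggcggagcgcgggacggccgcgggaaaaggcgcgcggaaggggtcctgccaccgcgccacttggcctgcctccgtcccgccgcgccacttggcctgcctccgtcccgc
BCL2: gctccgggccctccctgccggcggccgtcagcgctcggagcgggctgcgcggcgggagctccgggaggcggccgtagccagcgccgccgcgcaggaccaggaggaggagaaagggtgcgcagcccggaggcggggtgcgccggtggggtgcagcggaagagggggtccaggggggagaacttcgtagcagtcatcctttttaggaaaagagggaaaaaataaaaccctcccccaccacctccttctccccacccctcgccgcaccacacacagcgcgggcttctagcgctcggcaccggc

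The second set shows promoters with some of the smallest p on the lower side in APH, none of which passed the adjusted threshold. ZCCHC2 lies on the plus strand (chr18:62522775-62523074), and THOC1, part of the THO complex of mRNA export, on the minus strand (chr18:267998-268297).
ZCCHC2: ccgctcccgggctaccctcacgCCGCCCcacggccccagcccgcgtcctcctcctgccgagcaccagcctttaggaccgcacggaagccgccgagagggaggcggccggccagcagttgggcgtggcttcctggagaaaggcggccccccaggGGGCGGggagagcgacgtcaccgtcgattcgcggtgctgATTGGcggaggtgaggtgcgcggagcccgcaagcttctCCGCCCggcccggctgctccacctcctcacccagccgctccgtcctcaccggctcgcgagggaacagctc
THOC1: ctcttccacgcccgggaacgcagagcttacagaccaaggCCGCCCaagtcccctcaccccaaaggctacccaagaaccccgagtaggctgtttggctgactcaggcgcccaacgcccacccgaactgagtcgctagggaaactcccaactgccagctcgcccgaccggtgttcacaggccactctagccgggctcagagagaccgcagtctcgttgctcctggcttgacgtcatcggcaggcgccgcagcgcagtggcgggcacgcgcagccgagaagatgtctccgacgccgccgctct

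The third set shows starts at which no sample had a peak, chosen after the values were seen. DSG1, a desmosomal cadherin, lies on the plus strand (chr18:31317910-31318209), and CDH2, the gene of N-cadherin, on the minus strand (chr18:28177081-28177380).
DSG1: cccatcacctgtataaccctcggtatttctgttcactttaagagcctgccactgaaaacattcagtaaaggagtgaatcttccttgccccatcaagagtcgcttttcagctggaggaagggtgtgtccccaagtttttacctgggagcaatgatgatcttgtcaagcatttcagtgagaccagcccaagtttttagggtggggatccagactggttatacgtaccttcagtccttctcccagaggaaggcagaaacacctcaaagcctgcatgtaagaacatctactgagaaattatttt
CDH2: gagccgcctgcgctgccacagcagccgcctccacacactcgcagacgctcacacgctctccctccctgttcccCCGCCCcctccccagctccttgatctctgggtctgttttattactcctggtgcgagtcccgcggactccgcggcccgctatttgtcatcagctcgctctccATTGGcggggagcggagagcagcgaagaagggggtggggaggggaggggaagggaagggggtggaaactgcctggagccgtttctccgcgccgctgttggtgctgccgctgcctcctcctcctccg

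The 7 windows of the accessible promoters each lay inside a region found in all 6 samples. They held between 28 and 38 CpG dinucleotides in 300 bases, against 23 in CDH2 and 3 in DSG1. PHLPP1 had 4 GC boxes, ZCCHC2 3, AFG3L2 and SMAD4 2 each, and THOC1 and CDH2 1 each. TYMS, BCL2 and DSG1 held neither of the capitalised motifs. The other motifs searched on both strands were ETS (CCGGAAG), the TATA box (TATAAA), CRE (TGACGTCA) and AP-1 (TGANTCA), and no motif of the list contains another. Of these, THOC1 held 1 CRE and 1 AP-1 motif, left in lower case, and the other printed windows held none. A match describes the letters of a window and does not show a bound factor.

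Over all 365 chr18 protein-coding promoters in the table, a GC box was found in 54.8%, a CCAAT box in 28.5%, ETS in 8.77%, TATA in 11.2%, CRE in 3.84% and AP-1 in 8.49%. Over the 22132 such promoters of the whole table, the shares were 56.3%, 34.6%, 12.8%, 9.46%, 2.26% and 6.15%, in the same order. On chr18, 171 promoters had a region in all 6 samples and 171 had no peak in any. The GC box was present in 76.0% of the accessible and 34.5% of the inaccessible ones, and the median number of CpG dinucleotides was 30 against 7. The TATA box went the other way, with 5.26% of the accessible and 17.0% of the inaccessible promoters. So did AP-1 (5.26% and 11.1%) and the CCAAT box (26.9% and 30.4%), while ETS (15.2% and 3.51%) and CRE (5.85% and 1.75%) went with the GC box. The same contrast on all chromosomes gave GC boxes in 72.0% and 34.0%, CCAAT boxes in 35.6% and 33.8%, and a median of 27 against 6 CpG dinucleotides.

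Peaks were sparse on chr18 in every sample. There were 1148, 1395 and 1118 chr18 peaks in DMSO, out of 65859, 77184 and 64505, and 1428, 1495 and 1204 in APH, out of 79801, 84501 and 70113. This came to 14.3, 17.4 and 13.9 peaks per Mb in DMSO and 17.8, 18.6 and 15.0 in APH. The other chromosomes had 21.9, 25.7 and 21.5 peaks per Mb in DMSO and 26.6, 28.1 and 23.4 in APH. The density of chr18 was therefore between 0.642 and 0.676 of theirs, below 1 in 6 of 6 samples (mean log2 ratio -0.60, two-sided exact sign-flip test, n = 6, p = 0.0312, the smallest p that 6 samples allow). Without the weaker peaks, those under the median of all values, the mean log2 ratio was -0.91. Among 23 chromosomes, chr18 had the second lowest number of protein-coding genes per Mb (3.36) and the fourth lowest number of peaks per Mb (16.2). Each length ran to the highest position of a peak or RefSeq gene. Unassembled stretches were not taken out, so the ranks hold only for lengths measured in this way. Chromosome 13 had 2.96 genes and 14.01 peaks per Mb, and the gene-dense chromosome 19 had 24.8 and 58.0.

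**Figure D1:**
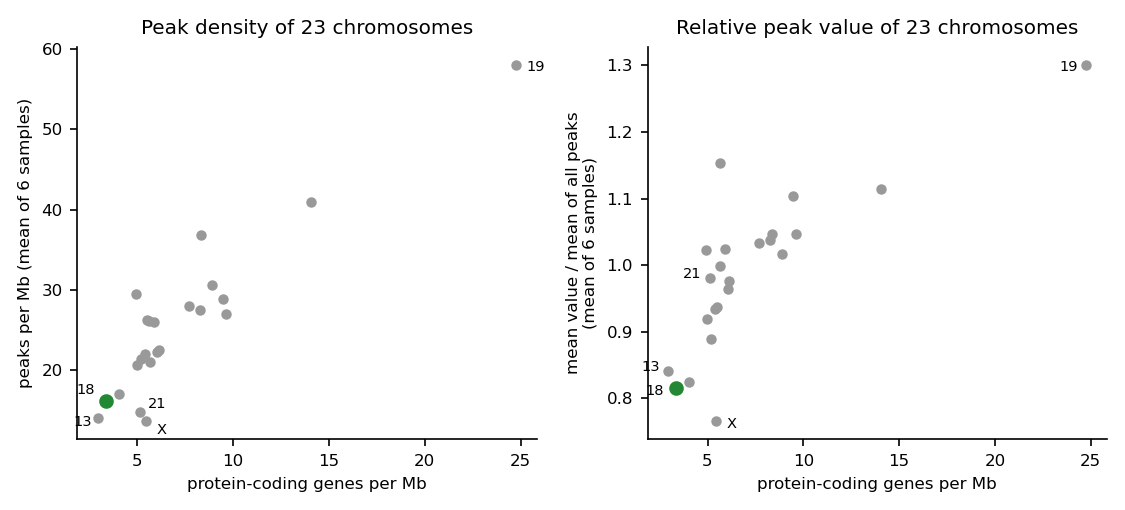
Peak density (left, peaks per Mb) and mean peak value divided by the mean of all peaks (right), each a mean over the 6 samples, against protein-coding genes per Mb, with 1 point per chromosome. Chromosome 18, in green, has 16.2 peaks per Mb and a relative value of 0.815, near chromosome 13 and far below chromosome 19.

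The chr18 peaks were also weaker. They averaged 63.7, 68.4 and 66.8 in value in DMSO and 56.7, 60.4 and 58.7 in APH, against 78.3, 85.2 and 83.1 and 69.4, 73.0 and 71.0 over all peaks of the same samples. The ratio of chr18 to all peaks was below 1 in 6 of 6 samples, between 0.802 and 0.827 (two-sided exact sign-flip test, n = 6, p = 0.0312), and was the second lowest of 23 chromosomes. Against the other chromosomes the mean log2 ratio of values was -0.30, and -0.16 without the weaker peaks. The same held within each gene class. Promoter peaks of chr18 had on average 0.863 of the value of promoter peaks elsewhere, gene body peaks 0.849 and intergenic peaks 0.820, each below 1 in all 6 samples (two-sided exact sign-flip tests, n = 6, p = 0.0312 each). The median chr18 peak was 330 to 348 bp wide in DMSO and 328 to 337 bp in APH.

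The make-up by gene class differed from that of other chromosomes. A peak was called promoter when its midpoint lay within 1 kb of a gene start, gene body when it lay elsewhere in a gene, and intergenic otherwise. Promoters took 19.7%, 17.2% and 21.1% of the chr18 peaks in DMSO and 17.0%, 16.8% and 19.9% in APH. The promoter share differed from that of the other chromosomes by -4.01 percentage points on average, and the intergenic share by 5.52, in the same direction in 6 of 6 samples (two-sided exact sign-flip tests, n = 6, p = 0.0312 each). On the log2 scale the promoter share differed by -0.28, but by -0.033 without the weaker peaks (two-sided exact sign-flip test, n = 6, p = 0.219). The intergenic share differed by 0.24, and by 0.19 without them. Of the 1858 merged regions, 260 were promoter regions, 913 lay in gene bodies and 685 were intergenic. The median region lay 45.1 kb from the nearest protein-coding start, against 25.4 kb on other chromosomes and 6.88 kb on chromosome 19. On chr18, 30.2% of the regions were more than 100 kb from such a start, against 20.4% elsewhere. Chromosome 13, also gene-poor, was much alike, with a median of 45.15 kb, 32.8% of its regions beyond 100 kb, 13.2% promoter and 37.96% intergenic regions, where chr18 had 13.99% and 36.9%.

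Promoter regions were most often found in every sample, as 76.9% of them had a peak in all 6 samples, against 39.4% of gene body and 42.9% of intergenic regions. On the other chromosomes these shares were 78.7%, 42.0% and 44.1%. Although genes were few, those present were as often accessible as elsewhere. A promoter region in all 6 samples was found for 160 of the 263 chr18 protein-coding genes with a known start (60.8%), and for 60.0% of those on other chromosomes. No peak was found at the starts of 90 chr18 genes (34.2%, against 35.2% elsewhere).

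The regions followed the genes along the chromosome. In windows of 1 Mb, 78 of 81 had a peak, with a median of 12.5, and the 10 windows with most peaks held 29.2% of all chr18 peaks. The 16 windows with no protein-coding gene start had a mean of 3.46 peaks, the 27 windows with 1 or 2 starts 9.56, the 19 windows with 3 to 5 starts 20.6, and the 19 windows with 6 or more 31.3. Over the 78 windows with peaks, the number of peaks and of starts had a Spearman correlation of 0.869 and a Pearson correlation of 0.826. This is a description, since the windows come from the same libraries and neighbouring windows are not independent.

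**Figure D2:**
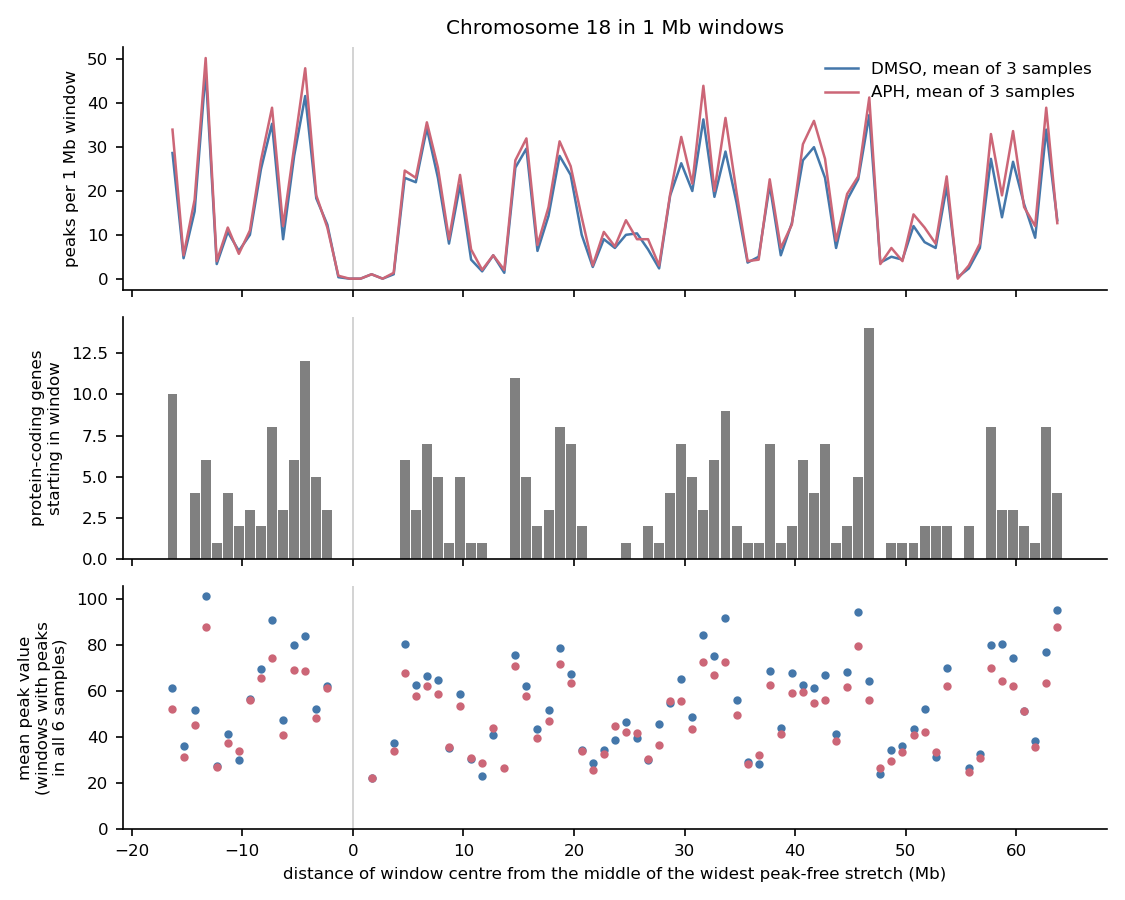
Chromosome 18 in windows of 1 Mb, placed by distance in Mb from the middle of the widest stretch without peaks. The panels show peaks per window (mean of 3 samples per condition), protein-coding genes that start in the window, and mean peak value in DMSO (blue) and APH (red) for windows with peaks in all 6 samples. Peaks gather where genes start, with up to 48.8 per window, and the stretch around 0 is nearly empty.

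The densest window, from 3 to 4 Mb, had 47, 51 and 44 peaks in DMSO and 51, 54 and 46 in APH. It holds the starts of DLGAP1, LPIN2, MYL12A, MYL12B, MYOM1 and TGIF1. The next, from 12 to 13 Mb, had a mean of 44.8 peaks and 12 starts, among them AFG3L2, CEP192, PTPN2 and SEH1L. The window from 48 to 49 Mb had 40.2 peaks with only 3 starts, those of CTIF, SMAD7 and ZBTB7C. At the other end, the window from 71 to 72 Mb had 1 peak in 1 sample and that from 15 to 16 Mb 1 peak in each of 3 samples, and neither overlaps a protein-coding gene.

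The 2 longest stretches without a peak in any sample were neighbours, chr18:15315646-18289464 (2974 kb) and chr18:18289778-20971109 (2681 kb), around the centromere, which is rich in repeats. Between them lay the lone region of the window from 18 to 19 Mb, chr18:18289465-18289777, with values of 21.9, 24.0 and 21.3 in DMSO and 22.6, 22 and 21.7 in APH. It was weak and, as deposited, nearly equal in all samples. Relative to all peaks, all APH values lay above all DMSO values (0.19, limma adjusted p = 0.563), as in 17.3% of all shared regions. The third stretch, chr18:71293646-72013311 (720 kb), holds no protein-coding gene. The peaks on the short-arm side of the widest stretch were 24.5%, 23.6% and 24.96% of the chr18 peaks in DMSO and 23.5%, 23.5% and 24.6% in APH (log2 difference -0.030, two-sided exact permutation test, n = 3 per group, p = 0.3). This difference was -0.0080 when the strongest peaks of each sample were taken in equal number, -0.052 without DMSO replicate 2 and -0.012 without DMSO replicate 3. Under DMSO they averaged 73.0 ± 3.26 in value and under APH 63.3 ± 1.49, and the peaks on the long-arm side averaged 64.1 ± 2.16 and 57.1 ± 2.02 (SD, n = 3).

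The strongest region of chr18 was not a promoter by the starts used here. It lay in DLGAP1, the gene of a postsynaptic scaffold protein (chr18:3623542-3624549), with values of 433, 593 and 489 in DMSO and 397, 474 and 376 in APH. The groups overlapped, as APH replicate 2 lay above DMSO replicate 1. The promoter region of PHLPP1 (chr18:62714810-62715662) had 339, 427 and 395 in DMSO and 286, 321 and 301 in APH. That of AFG3L2 (chr18:12376743-12377988) had 314, 388 and 409 and then 287, 295 and 325. In PHLPP1 all APH values lay below all DMSO values as deposited, as in 38% of the chr18 promoter regions and 14.4% of all shared regions, but relative to all peaks the groups overlapped. In AFG3L2 APH replicate 3 lay above DMSO replicate 1.

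The promoter regions of CXXC1, a protein that binds unmethylated CpG, and of C18orf32 followed with means of 333 and 325 over the 6 samples, and that of the zinc finger gene ZNF519 was eighth with 294. The 8 strongest regions also included 2 intergenic sites far from any protein-coding start. The first (chr18:61606690-61607211) lay 274 kb from the nearest, that of the cadherin gene CDH20, and had 333, 410 and 271 in DMSO and 277, 319 and 228 in APH. The second (chr18:8890900-8891444) lay 184 kb from the start of MTCL1, a microtubule-binding protein, with 279, 393 and 276 and then 293, 309 and 223. In each of these 2 sites the groups overlapped, and replicate 2 was the highest in each condition. Relative to all peaks, the log2 differences of the 8 regions ran from -0.14 to 0.052.

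Long genes of chr18 differed widely in the number of regions they held. Of 14 protein-coding genes of at least 400 kb, DLGAP1 had 35 regions in 959 kb, the formin gene FHOD3 15 in 483 kb, ZNF407 13 in 468 kb and the receptor phosphatase gene PTPRM 11 in 840 kb. DCC, the netrin receptor gene and the longest, had 6 regions in 1196 kb and no peak at its start. The other 9 held between 3 and 8. ZNF407 had 9, 8 and 7 peaks in DMSO and 12, 10 and 10 in APH. It was the only one of the 14 whose groups did not overlap in number, and divided by the peak number of each sample they overlapped. In DLGAP1 the numbers overlapped, with 24, 28 and 25 against 26, 27 and 23, and in DCC with 4, 5 and 4 against 5, 6 and 3.

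Over all called peaks, the share that lay on chr18 was close in both conditions. It was 1.74%, 1.81% and 1.73% in DMSO and 1.79%, 1.77% and 1.72% in APH, and the log2 difference was -0.0021 (two-sided exact permutation test, n = 3 per group, p = 1). With 3 samples against 3, no exact p can be below 0.1. The groups overlapped, though DMSO replicate 2 lay above and APH replicate 3 below all samples of the other condition. As a share of the covered length chr18 took 1.67% ± 0.044 under DMSO and 1.67% ± 0.035 under APH (SD, n = 3, two-sided exact permutation test, p = 1). In limma over 23 chromosomes, the difference in share had an adjusted p of 0.93, and 2 chromosomes were called (8.7%), not chr18. The share depended on how many peaks were taken. With the strongest peaks of each sample taken up to the number of the smallest list, an equal number per sample, it was lower in APH by -0.073 with no overlap (two-sided exact permutation test, n = 3 per group, p = 0.1), and limma over 23 chromosomes called it (adjusted p = 0.00983) as 1 of 5 chromosomes (21.7%). The share of covered length was then lower by -0.046, again with no overlap (two-sided exact permutation test, n = 3 per group, p = 0.1). Against chromosome 13, also gene-poor, the log2 ratio of shares was -0.29, -0.28 and -0.30 in DMSO and -0.31, -0.33 and -0.31 in APH. These did not overlap (log2 difference -0.025, two-sided exact permutation test, n = 3 per group, p = 0.1), but the difference was 0.036 without the weaker peaks, and -0.021 with overlap for an equal number of peaks (two-sided exact permutation tests, n = 3 per group, p = 0.4 and 0.3). Against chromosome 19 it was 0.12 and against chromosome 21 0.10, each with overlapping groups (two-sided exact permutation tests, n = 3 per group, p = 0.2). The difference against chromosome 19 was 0.067 without DMSO replicate 3, 0.18 without DMSO replicate 2 and -0.039 with an equal number of peaks, and that against chromosome 21 was 0.060 with an equal number of peaks and 0.17 without the weaker peaks, with no overlap in both (two-sided exact permutation tests, n = 3 per group, p = 0.1 each).

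**Figure D3:**
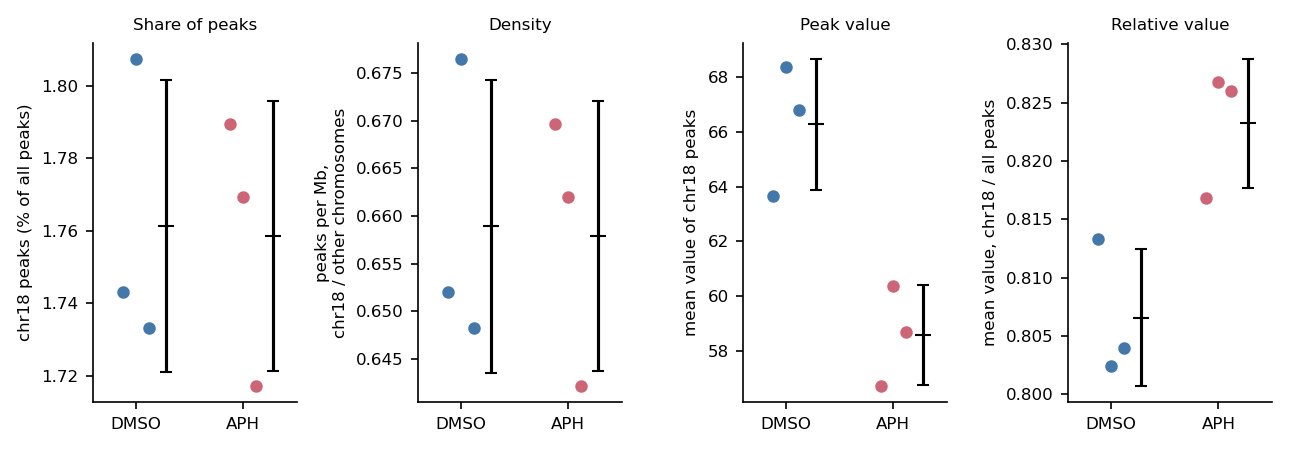
Chromosome 18 in each sample, with points for samples and a bar for the mean and SD of 3. From left to right, the share of all peaks (%), the peak density relative to the other chromosomes, the mean peak value and the mean value relative to all peaks. The groups overlap in the first pair of panels and not in the second, where APH lies lower in value and higher in relative value, and the axes do not start at 0.

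The mean value of chr18 peaks was lower in APH, as it was over all peaks, and the gap was slightly smaller on chr18. The ratio of chr18 to all peaks was 0.813, 0.802 and 0.804 in DMSO and 0.817, 0.827 and 0.826 in APH. All APH samples lay above all DMSO samples, by a log2 difference of 0.029 (two-sided exact permutation test, n = 3 per group, p = 0.1). In limma over 23 chromosomes, the same difference had an adjusted p of 0.0164, and chromosome X was the only other of 23 called (8.7% in all). With medians over peaks in place of means it was 0.077 (limma adjusted p = 0.00547). The call on means was lost without DMSO replicate 2 (adjusted p = 0.12), without APH replicate 2 (adjusted p = 0.141) and without APH replicate 3 (adjusted p = 0.174) in limma, and with an equal number of peaks (difference 0.063, adjusted p = 0.0729). Without the peaks under the median of all values, the difference was -0.012 (two-sided exact permutation test, n = 3 per group, p = 0.4). The direction thus depended on how weaker peaks were left out, as it stayed positive with an equal number of peaks.

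The relative values differed along the strength of the regions. All 50148 shared regions were ranked by strength and divided into 5 equal groups, and chr18 had 27.0% of its 854 shared regions in the weakest, then 21.7%, 20.02%, 18.3% and 13% in the strongest. The median log2 difference of APH from DMSO, on values divided by the sample's overall mean, was 0.24, 0.29, 0.19, 0.095 and -0.077 from the weakest to the strongest group. On the other chromosomes it was 0.29, 0.25, 0.17, 0.076 and -0.015. With the values as deposited, the chr18 medians were 0.033, 0.087, -0.020, -0.11 and -0.28, so the sign in the middle groups depends on the scale, which shifts all groups alike. After a correction of each sample for the genome-wide trend with strength, the chr18 median differed by -0.0005 (two-sided exact permutation test, n = 3 per group, p = 0.9).

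**Figure D4:**
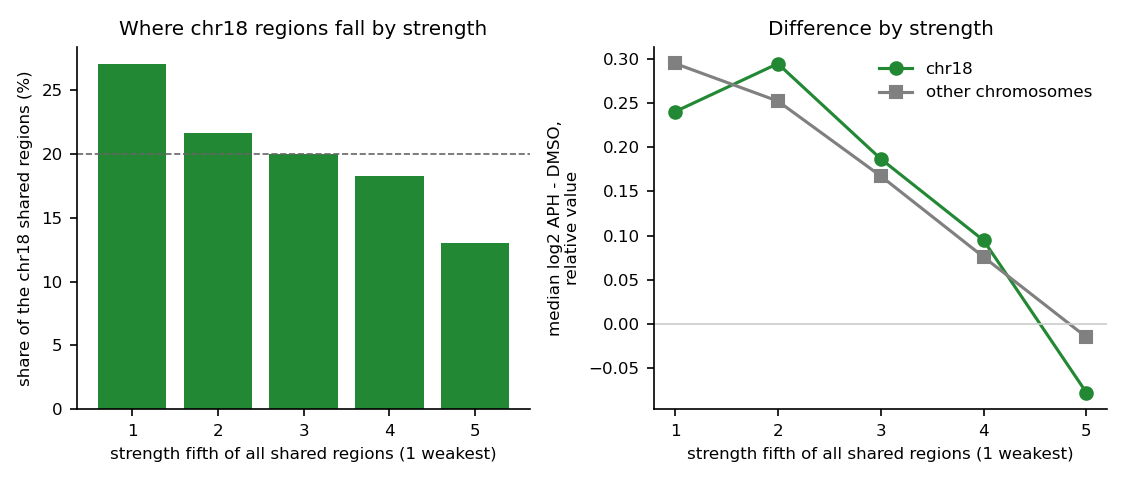
Shared regions in 5 groups of equal size by strength, 1 being the weakest. Left, the share of the chr18 shared regions in each group (%), with a dashed line at 20%. Right, the median log2 difference APH minus DMSO of the relative value on chr18 (green) and on the other chromosomes (grey), which on chr18 runs from 0.24 in the weakest to -0.077 in the strongest group. With the values as deposited, the chr18 medians of groups 3 and 4 are negative.

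By gene class, the median relative difference over the chr18 shared regions was -0.050 in promoters, 0.22 in gene bodies and 0.25 in intergenic regions. Elsewhere it was -0.031, 0.21 and 0.22. The signs on chr18 were the same with values as deposited (-0.26, 0.0084 and 0.047), with centring on the median (-0.23, 0.036 and 0.075) and after quantile normalization (-0.11, 0.036 and 0.046). The mean value of chr18 promoter peaks was 122, 134 and 132 in DMSO and 100.4, 107 and 112 in APH. All APH samples lay below all DMSO samples, 106 ± 5.88 against 129 ± 6.25 (SD, n = 3, two-sided exact permutation test, p = 0.1). Relative to the promoter peaks of the whole genome, chr18 promoters differed by -0.016 with overlapping groups (two-sided exact permutation test, n = 3 per group, p = 0.4). This was 0.0064 with an equal number of peaks, and -0.0047 without APH replicate 1, -0.0054 without APH replicate 2 and -0.039 without APH replicate 3, so no direction can be given. Intergenic chr18 peaks relative to all intergenic peaks differed by 0.044 with no overlap (two-sided exact permutation test, n = 3 per group, p = 0.1). It differed by -0.0090 without the peaks under the median, and by 0.071 with an equal number of peaks, with overlap in both (two-sided exact permutation tests, n = 3 per group, p = 0.9 and 0.2). The shares of the 3 classes had overlapping groups, with log2 differences of -0.11 for promoters, 0.016 for gene bodies and 0.039 for intergenic peaks (two-sided exact permutation tests, n = 3 per group, p = 0.3, 0.8 and 0.4). With an equal number of peaks all 3 signs turned, to 0.081, -0.027 and -0.015 (two-sided exact permutation tests, n = 3 per group, p = 0.1, 0.2 and 0.5), so no direction can be given. The promoter difference was -0.19 without DMSO replicate 2 and -0.045 without DMSO replicate 3, where the intergenic difference was 0.057 and 0.010.

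The stretches poorest in genes had the weakest peaks. In the 16 windows without a protein-coding start there were 51, 70 and 40 peaks in DMSO and 65, 67 and 39 in APH, which is 4.35% ± 0.725 and 4.09% ± 0.74 of the chr18 peaks (SD, n = 3, two-sided exact permutation test, p = 0.7). They averaged 33.2, 37.6 and 33.7 in value in DMSO and 34.1, 37.8 and 33.0 in APH. These groups overlapped almost entirely, while peaks in the other chr18 windows averaged 67.7 ± 2.47 in DMSO and 59.6 ± 1.82 in APH with no overlap (SD, n = 3, two-sided exact permutation tests, p = 0.8 and 0.1).

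Divided by the mean of all peaks, the value in these windows was closer to that mean in APH. The log2 ratio was -1.24, -1.18 and -1.30 in DMSO and -1.02, -0.95 and -1.11 in APH, a difference of 0.21 with no overlap (two-sided exact permutation test, n = 3 per group, p = 0.1). The same measure in windows without a protein-coding start on the other chromosomes differed by 0.11, and the log2 ratio of chr18 to these windows was 0.11 higher in APH, with no overlap in either (two-sided exact permutation tests, n = 3 per group, p = 0.1). The last value was 0.050 with an equal number of peaks and 0.20 without the weaker peaks, with overlap in both (two-sided exact permutation tests, n = 3 per group, p = 0.3 each), and 0.070 in smaller windows with no overlap. Of these regions only 30 were shared by all samples. Their median relative value differed by 0.18, and by -0.10 after the correction for strength, with overlapping groups in both (two-sided exact permutation tests, n = 3 per group, p = 0.5 and 0.2).

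No chr18 window passed the adjusted threshold of 0.05 in limma. For the share of peaks, 64 windows were tested, and 0 had higher and 1 lower values in APH at an unadjusted p below 0.05, against 10.7% of 2540 windows genome-wide in either direction. There were 0 higher and 6 lower of 58 with an equal number of peaks (129 and 145 of 2386 genome-wide). There were 4 higher and 1 lower of 65 without APH replicate 3 (213 and 146 of 2563). For the relative value, 65 were tested, with 11 higher and 1 lower, against 10.1% and 2.97% of 2594. The 11 windows are 16.9% of those on chr18. Without APH replicate 2 there were 5 higher and 0 lower of 65 (127 and 62 of 2594 genome-wide). Without the weaker peaks there were 1 higher and 2 lower of 41 (81 and 65 of 1943). The median relative difference was 0.22 in the windows without a protein-coding start (6 tested), 0.12 with 1 or 2 starts, 0.076 with 3 to 5 and 0.00068 with 6 or more. It was thus lower where more genes start. The scale matters here too, as the mean over all peaks used as divisor was 82.2 in DMSO and 71.2 in APH. This shifts all windows alike, so a positive difference need not be a rise in the value as deposited. As deposited, peaks in the windows without a start averaged 34.8 in DMSO and 35.0 in APH, and peaks in the other chr18 windows 67.7 and 59.6.

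The window with the smallest p on the higher side for the value, from 53 to 54 Mb at the end of DCC, had mean values of 26.3, 27.4 and 30.9 in DMSO and 33.5, 33.1 and 30 in APH (log2 difference relative to all peaks 0.40, limma adjusted p = 0.243). As deposited, APH replicate 3 lay below DMSO replicate 3. The windows from 6 to 7 Mb, with the starts of ARHGAP28 and L3MBTL4, and from 40 to 41 Mb, with no protein-coding gene, had differences of 0.40 and 0.41 (limma adjusted p = 0.274 and 0.293). On the lower side stood the windows from 50 to 51 Mb, with 9 starts including those of MBD1, ME2 and SKA1, from 75 to 76 Mb, with TSHZ1, and from 9 to 10 Mb, with NDUFV2 and VAPA (-0.13, -0.11 and -0.079, limma adjusted p = 0.367, 0.472 and 0.522). None of these 6 passed the test. The difference from 75 to 76 Mb was -0.053 without DMSO replicate 3 and -0.067 without APH replicate 1, and that from 9 to 10 Mb -0.050 without APH replicate 3 and -0.030 with an equal number of peaks.

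For the share of peaks, the smallest p on the higher side came from the windows from 50 to 51, 76 to 77 and 75 to 76 Mb (log2 differences 0.15, 0.15 and 0.24). In the first of them there were 29, 31 and 27 peaks in DMSO and 35, 39 and 36 in APH, with no overlap in number, while as shares of all peaks the groups overlapped. The smallest on the lower side came from 42 to 43 Mb, where parts of PIK3C3 and RIT2 lie, with 10, 12 and 9 peaks in DMSO and 10, 11 and 6 in APH (-0.39). The windows from 77 to 78 Mb, with GALR1 and the myelin gene MBP, and from 80 to 81 Mb, with ADNP2 and TXNL4A, followed (-0.23 and -0.24). The window from 50 to 51 Mb thus had a higher share of peaks and a lower mean value, neither past the adjusted threshold, but both signs turned when equally many peaks were taken (-0.036 and 0.021). Without the weaker peaks, the share differed by -0.031 from 76 to 77 Mb and by 0.27 from 77 to 78 Mb, and the value from 75 to 76 Mb by 0.031. With an equal number of peaks, the share from 76 to 77 Mb differed by 0.0014, that from 75 to 76 Mb by 0.038 and that from 80 to 81 Mb by -0.11. Without DMSO replicate 3 these 3 were 0.0996, 0.14 and -0.16, while without APH replicate 3 the window from 50 to 51 Mb had 0.089 and that from 42 to 43 Mb -0.22.

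Of the 1858 chr18 regions, 1389 (74.8%) had a peak in both conditions, 330 (17.8%) in APH only and 139 (7.48%) in DMSO only. On the other chromosomes these shares were 74.4%, 18.5% and 7.02%. A peak in all 3 APH samples and no DMSO sample was found in 13 chr18 regions (0.70%, against 1.11% elsewhere), and the reverse in 5 (0.27%, against 0.18%). Of the 13, 6 lay in gene bodies, 6 were intergenic and 1 was a promoter region. That last region (chr18:9135853-9136186), named after its values were seen, lies 0.762 kb from a start of ANKRD12 and had values of 81.1, 92.7 and 88.0 in APH. The other 12 had mean values between 21.1 and 30.7, and the 5 of DMSO were intergenic with 20.9 to 25.4.

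Among the 854 shared chr18 regions, 0 passed an adjusted p of 0.05 in limma with the condition as its only term, as did 0 of all 50148 (0%). At an unadjusted p below 0.05, 134 had higher relative values in APH (15.7%, against 14.7% of all regions) and 8 lower (0.94%, against 1.15%). In 146 regions all APH values lay above all DMSO values (17.1%, against 17.3%) and in 25 below (2.93%, against 3.26%), so these shares were near those of the genome. The scale matters for these counts. Dividing by the mean of all peaks moves the median difference of all shared regions to 0.15, from -0.059 as deposited, and the chr18 median was 0.18 on the same scale. The split on chr18 was 15 higher and 74 lower as deposited, 54 and 67 with centring on the median, and 42 and 29 after quantile normalization. Without APH replicate 1 there were 65 higher and 1 lower of 860. Without APH replicate 3 there were 250 and 28 of 897, and with an equal number of peaks 81 and 43 of 758. Over all regions these were 3802 and 232 of 50707, 12797 and 1221 of 52020, and 4213 and 2945 of 46192, in the same order.

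The 5 chr18 regions of smallest p on the higher side, chosen among those whose relative values did not overlap and none called, lay outside promoters. The first (chr18:23053848-23054221), intergenic and 80.5 kb from the start of CABLES1, had 22, 22.6 and 21.3 in DMSO and 32.8, 38.4 and 28.7 in APH (log2 difference relative to all peaks 0.78 with SE 0.18, limma adjusted p = 0.178). The second (chr18:13530873-13531265), in LDLRAD4, an inhibitor of TGF-beta signalling, had 19.7, 27.3 and 25.6 and then 39.8, 43.7 and 31.4 (0.85 with SE 0.20, limma adjusted p = 0.178). In each, all APH values lay above all DMSO values also as deposited. The others were chr18:75161588-75162141 near PTGR3, with a mean of 129 the only strong region of the 5, chr18:46706976-46707366 in the sialyltransferase gene ST8SIA5, and chr18:35983803-35984203 near RMP24 (0.52, 0.88 and 0.85, limma adjusted p = 0.178 each). Without APH replicate 3, the adjusted p of these 5 in limma lay between 0.0468 and 0.0585 and 6 of 897 chr18 regions were called (0.669%), a lower share than that of all 52020 regions (1.13%).

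On the lower side, the regions of smallest p given here, chosen in the same way, were promoter regions, and none was called. At SNRPD1, a core protein of the spliceosome (chr18:21611989-21612683), the values were 218, 248 and 265 in DMSO and 152, 179 and 172 in APH (-0.33 with SE 0.11, limma adjusted p = 0.222). ZCCHC2, whose promoter is printed above, had 246, 265 and 274 and then 162, 164 and 218. PTPN2, a phosphatase that restrains JAK-STAT signals, had 176, 173 and 169 and then 115, 113 and 130. THOC1, printed above, had 132, 155 and 134 and then 105, 84.5 and 94.9. The 3 had relative differences of -0.33, -0.32 and -0.36 (limma adjusted p = 0.252, 0.252 and 0.26), and of -0.54, -0.53 and -0.56 as deposited.

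Genes of chr18 were also read by lists, using the strongest promoter region of each gene, and 0 genes of any list passed the adjusted threshold in the same limma fit. The median relative difference was lower in the strongest group of chr18 shared regions (-0.077) than in the weakest (0.24). The list medians and counts are set beside regions not matched for strength, and the part of strength in them was not tested. Of the TGF-beta and 18q tumour genes, SMAD2, SMAD4, SMAD7 and TGIF1 had a promoter region in all 6 samples and DCC had none. SMAD4 had 83.5, 79.2 and 86.0 in DMSO and 58.2, 67.9 and 67.8 in APH. As deposited APH lay below DMSO, as in 38% of the chr18 promoter regions, but the relative values overlapped (log2 difference -0.15). TGIF1, with 294, 329 and 311 and then 225, 225 and 266, was the only one of the 4 with lower relative values without overlap (-0.18, 3.26% of all shared and 12% of the chr18 promoter regions). SMAD2, a receptor-regulated SMAD, had 148, 122 and 158 and then 92.6, 91.4 and 112. SMAD7, an inhibitor of the pathway, had 185, 230 and 186 and then 170, 211 and 150. The median relative difference of the 4 genes was -0.16, against 0.15 over all shared regions and -0.050 over the chr18 promoter regions. At an unadjusted p below 0.05 the list had 0 genes in either direction. Of all shared regions 14.7% were higher and 1.15% lower at that threshold, and of the chr18 promoter regions 4% were lower.

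All 16 genes of replication, chromosomes and repair had a promoter region in all 6 samples, with means from 82.9 (RBBP8, a factor of DNA end resection) to 333 (CXXC1). TYMS had 176, 164 and 179 in DMSO and 119, 123 and 142 in APH, with overlapping groups on the relative scale (-0.23). ESCO1, a cohesin acetyltransferase, had 246, 414 and 267 and then 219, 257 and 241, with overlapping groups. POLI, a translesion polymerase, had 186, 190 and 195 and then 147, 155 and 167, also with overlapping relative values (-0.076). The list had a median relative difference of -0.13, and 4 genes (SKA1, CEP192, MBD1 and THOC1) had lower relative values in APH without overlap (3.26% of all shared regions, and 24 of the 200 promoter regions of chr18, or 12%). At an unadjusted p below 0.05 it had 0 higher and 1 lower. Of the chr18 promoter regions 4% were lower, and of all shared regions 14.7% were higher and 1.15% lower.

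The 12 genes of apoptosis and signalling likewise had a promoter region in every sample, with a median relative difference of -0.022. BCL2 had 95.4, 87.9 and 113 in DMSO and 79.6, 77.9 and 97.2 in APH, with overlap. PMAIP1, a promoter of apoptosis, had 142, 137 and 177 and then 124, 131 and 151, again with overlap. The weakest was TNFRSF11A, the receptor RANK, with a mean of 44.03, and the relative differences ran from -0.32 (PTPN2) to 0.27 (TNFRSF11A). PTPN2 and MIB1 had lower relative values in APH without overlap (3.26% of all shared and 12% of the chr18 promoter regions). At an unadjusted p below 0.05 there were 0 higher and 1 lower, where 4% of the chr18 promoter regions were lower. Of all shared regions, 14.7% were higher and 1.15% lower.

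**Figure D5:**
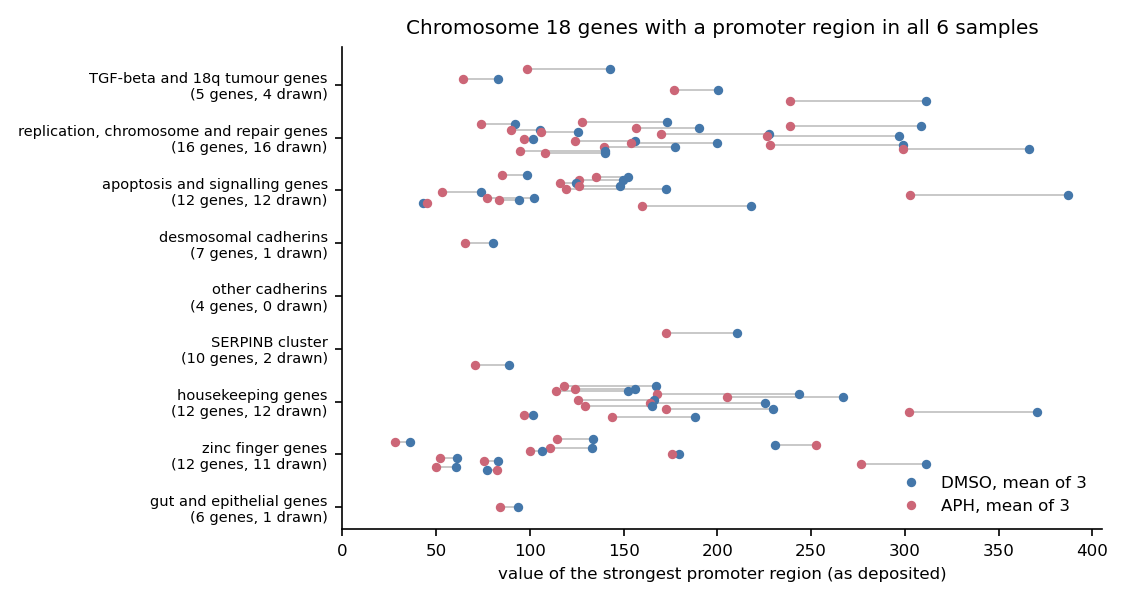
Value as deposited of the strongest promoter region of each listed chr18 gene that has one in all 6 samples, as the mean of 3 DMSO (blue) and 3 APH (red) samples joined by a line. The cadherin, SERPINB and gut lists have few genes drawn, 4 of 27, while the replication, apoptosis and housekeeping lists are drawn in full. Of the zinc finger genes, 11 of 12 are drawn.

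The gene clusters of adhesion and epidermal genes were mostly without peaks at their starts. Of the desmosomal cadherins, DSG2 had a region in all samples, with 79.9, 74.9 and 86.2 in DMSO and 54.0, 56.6 and 86.2 in APH, and DSC2 had a peak in APH replicate 3 alone. DSC1, DSC3, DSG1, DSG3 and DSG4 had none, and neither did CDH2, CDH7, CDH19 or CDH20. In DSG2 the APH samples differed widely, and replicate 3 lay within the DMSO values. Of the 10 genes of the SERPINB cluster, protease inhibitors and their relatives, SERPINB8 had a strong region (207, 208 and 216 in DMSO, 171, 177 and 171 in APH) and SERPINB12 one with 84.7, 106 and 76.6 and then 76.4, 83.8 and 52.8. SERPINB7 had a weak peak in 5 samples, and the other 7 had none. Among the gut and epithelial genes, GATA6, a transcription factor of endoderm, had a region in all samples with a mean of 89.0, MYO5B had one in 4 samples, and LAMA1, LAMA3, ATP8B1 and EPB41L3 had none.

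All 12 housekeeping genes had a promoter region in all samples, with a median relative difference of -0.19. NARS1, an aminoacyl-tRNA synthetase, had 245, 288 and 269 in DMSO and 195, 216 and 203 in APH. VAPA, a protein of the endoplasmic reticulum, had 205, 244 and 227 and then 158, 151 and 183. In each, APH lay below DMSO without overlap, as in 5 genes of the list on the relative scale (RPL17, SNRPD1, NARS1, VAPA and ELP2), where 12% of the chr18 promoter regions, 9.48% of those elsewhere and 3.26% of all shared regions did so. HAUS1 and ATP5F1A share a promoter region, as do CEP76 and PSMG2, so these pairs of the replication and housekeeping lists are not independent. At an unadjusted p below 0.05 the housekeeping list had 0 higher and 1 lower. At that threshold 4% of the chr18 promoter regions were lower, and of all shared regions 14.7% were higher and 1.15% lower.

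Of the zinc finger genes, 11 of 12 had a promoter region in all samples and ZNF532 had one in 2 samples. Their median relative difference was 0.052, but -0.16 as deposited, -0.13 with centring on the median and -0.038 after quantile normalization, so no direction can be given. ZNF397 had 206, 236 and 250 in DMSO and 275, 289 and 193 in APH. It was the only gene of the lists with a higher relative value at an unadjusted p below 0.05 (0.32 with SE 0.14, limma adjusted p = 0.3), and its groups overlapped. Of all shared regions, 14.7% were higher at that threshold. As deposited, APH replicate 3 was the lowest sample. ZNF516, with 163, 191 and 184 and then 166, 175 and 186, was the only zinc finger gene with higher relative values without overlap (0.18, as in 17.3% of all shared regions), and as deposited its groups overlapped (-0.029). For the TGF-beta, replication, apoptosis and housekeeping lists the median was negative under all 4 scalings, as was that of all chr18 promoter regions, and the apoptosis median lay above the latter under each.

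Markers of cell type were read at their promoters on all chromosomes to check the label. EPCAM, KRT8 and KRT18 had a region in all 6 samples, the keratin pair sharing 1 region, and KRT19 and CDH1 had none. Of the intestinal markers, CDX2 had a region in all samples and CDX1 and VIL1 had none. The blood markers PTPRC and CD3E had none, the fibroblast marker COL1A1 had 1 in all samples with a mean of 68.7, and PECAM1 was not analysed here. All these marker genes lie on chromosomes other than chr18, so their sites are not among the chr18 values.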

How the data were processed

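Lists of ATAC-seq peaks from RKO cells were used, 3 with DMSO and 3 with APH, grouped by the treatment in the labels. The authors deposited, for each sample, peak positions and a signal, which averages, across the peak, the coverage by aligned reads. Reads were aligned with BWA mem (0.7.12 in the submitters' processing notes) to hg38, duplicates were removed, and MACS2 2.1.0 called peaks in each sample without a control, with blacklisted peaks filtered out. No shift of reads to the transposase cutting site is named, which can move peak edges by a few bases. The methods of the study name no scaling of the signal to library size. Depth is unknown, so a difference in depth could pass into values and peak numbers.

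Overlapping peaks (1 bp or more) were merged over all samples, and regions took, per sample, the length-weighted mean of their peaks. Gene starts came from the RefSeq promoter table and from the strand-side end of each RefSeq gene span (GRCh38.p14), with strands from a GENCODE annotation where the table has none (99.6% of strands matched where both were known). A start was found for 19630 of 19974 protein-coding genes and for 263 of 270 on chr18, 234 of them in the promoter table. Peaks were assigned by midpoint, with promoters within 1 kb of a start of any gene.

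Single values were compared with two-sided exact permutation tests on log2 values, and chr18 with the other chromosomes by sign flips over samples. Chromosomes, 1 Mb windows (mean of at least 5 peaks for the share, at least 3 peaks in every sample for the value) and shared regions were fitted genome-wide with limma with trend on the log2 scale, with a pseudocount of 1 for regions and peak numbers, values divided by the sample mean over all peaks, and Benjamini-Hochberg adjustment at 0.05. The study speaks of 3 independent ATAC-seq experiments on both conditions and of biological replicates, but neither its text nor the labels say that equal replicate numbers mark 1 experiment. The p-values measure only the spread between these samples. Limma was tested on simulated data.

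Named regions were the 8 strongest and, as none was called, the 5 in each direction of smallest unadjusted p whose groups do not overlap. Named windows were the 3 with most and the 3 with fewest peaks, of those with any peak, and the 3 of smallest p in each direction. The 3 longest stretches without peaks, the genes of at least 400 kb and fixed gene lists were also named. Members and lists were chosen with earlier results of these data known. Some of the regions and genes that these rules name are not reported here. Alternatives covered the peak threshold, an equal number of peaks, scaling, pseudocounts, filters, promoter and window size, gene set, merging, leaving out each replicate and a replicate block. Python 3.11.15, numpy 2.4.6, pandas 2.3.3, scipy 1.17.1, matplotlib 3.10.9, R 4.3.3 and limma 3.58.1 were used.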

Additional observations from a re-analysis of the deposited data

How the results depend on the processing

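Of 233 values of the 22 main results under alternatives, 192 kept their direction and their side of the threshold, as did 270 of 308 values of the named windows and regions and added results. Exact tests of 3 against 3 samples allow no p below 0.1. For the results tested that way the side of the threshold was fixed, and only the direction could change. The low density, value and promoter share of chr18 kept their direction under every alternative run, but not their size. Without the peaks under the median of all values, the log2 ratios were -0.906, -0.159 and -0.0328, the last with an exact sign-flip p of 0.219. With each replicate left out, the log2 density ratio of chr18 ranged from -0.611 to -0.596, and 5 samples allow no exact p below 0.0625.

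Without these peaks, the log2 differences of APH from DMSO on chr18 were 0.0257 for the share of peaks (also in the chromosome fit), -0.0117 for the relative mean value (also in the chromosome fit), -0.0064 and -0.0090 for the values of gene body and intergenic peaks and 0.0355 for the share against chromosome 13. The windows at 76 and 77 Mb had -0.031 and 0.267 for the share, and that at 75 Mb 0.031 for the value. With an equal number of peaks, the differences were -0.0455 for covered length, 0.0809, -0.0274 and -0.0150 for the promoter, gene body and intergenic shares, 0.0064 for the promoter value, -0.222 for the share in windows without a protein-coding start, -0.0393 against chromosome 19 and 0.0052 for the strength-corrected value. There the chromosome fit in limma gave -0.0725 for the share (adjusted p = 0.00983) and 0.0626 for the value (adjusted p = 0.0729), the window at 50 Mb -0.036 for the share and 0.021 for the value, and that at 75 Mb 0.039 for the value. The causes were not tested.

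With a replicate left out, the ranges were -0.0147 to 0.0167 for the share of peaks (also in the chromosome fit), -0.00787 to 0.0257 for covered length, -0.193 to -0.0454, -0.00197 to 0.0379 and 0.0105 to 0.0574 for the promoter, gene body and intergenic shares, -0.0388 to -0.0047 for the promoter value, -0.0523 to -0.0116 for the short-arm side, 0.0665 to 0.178 against chromosome 19, -0.224 to 0.0694 for the share in windows without a protein-coding start, -0.0100 to 0.0111 for the strength-corrected value and 0.0258 to 0.0355 for the value in the chromosome fit. Between 0 and 6 chr18 regions were called, the 6 without APH replicate 3, where 575 regions were higher and 14 lower genome-wide. The cause was not tested.

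Deviations of same-numbered samples from their group means had correlations of -0.0066, 0.477 and 0.515 over the 50148 shared regions, so the numbers were not taken to pair the samples. As a hint from the data, DMSO replicates 2 and 3 correlated best with their own number and DMSO replicate 1 with APH replicate 3 (0.125). With a replicate block in limma, 134 chr18 regions were called, 125 higher (14.6%, against 13.6% of all regions) and 9 lower (1.05%, against 1.17%), among them the 5 higher and 4 lower regions described for their small p (adjusted p from 0.00168 to 0.0365). Of the listed genes, SMAD2, THOC1, PTPN2, NDUFV2, SNRPD1 and ZNF397 were called (adjusted p from 0.0170 to 0.0449). With the block, no chr18 window was called, and the relative value of chr18, with a difference of 0.0295, was not (adjusted p = 0.0834). Unknown depth limits every value.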
